A study of Oryza sativa Japonica Group with 96 samples.

Results

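The genes described here encode 10 proteins of the cytosolic ribosome of rice, each represented by 1 feature of the array, out of 36643 features in all. They were chosen by their annotation and not by a measured value: RPL5B (LOC9271934), RPL39B (LOC4331014), RPL7A-2 (LOC4347522), RPL30 (LOC4324441) and 60SP0 of the large subunit, and RPS7 (LOC4338485), RPS10 (LOC4335865), RPS15 (LOC4342580), RPS3A (LOC4331966) and RPS27AB (LOC4337883) of the small subunit. All 10 were on the array, and all 10 had a mean log2 expression above 5 over the 96 arrays, so none was lost to a filter on low values. Another 11 cytosolic ribosomal protein genes, named by the same annotation, served for comparison.

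The ribosome builds proteins from messenger RNA, and its small subunit reads the message while its large subunit joins the amino acids. Its proteins are made in near-equal amounts from genes that plants keep in several copies each, and their transcripts are known to be abundant in growing and dividing tissue such as meristems and young root primordia. Crown roots, which form most of the root system of rice, start as divisions in the stem base.

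Every plant was of cultivar Taichung 65 carrying the crl1 mutation, which abolishes crown root formation by loss of the transcription factor CRL1. DXC plants (a single line, called DXC3 in the labels) carried the vector pINDEX2 with the CRL1 gene under dexamethasone control. DX plants carried the same vector empty, and both lines received 1 µM dexamethasone at 0 h, removed at 5 h by a change of medium, which makes DX the control for the chemical and for the new medium. Seedlings had grown for 5 days with 14 h of daylight and rested for 24 h in flasks before the treatment. Each sample pooled 10 to 15 stem bases. Sampling ran at intervals of 3 h over 45 h and was repeated in 3 separate experiments, which gave 48 DXC and 48 DX arrays. In such bulk samples fewer cells of a type and less RNA per cell cannot be told apart.

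The values are log2 expression, background-corrected and normalized with GCRMA by the authors. Array medians lay between 4.62 and 4.76, whereas the SD of the log2 values over all features of an array ran from 1.40 to 1.68. This SD mostly moved in sets of 4 consecutive hours of a line and experiment (0 to 9, 12 to 21, 24 to 33 and 36 to 45 h), with a median range of 0.029 within a set, and no label names such sets. In DX experiment 3, however, it was 1.54 at 0 h and 1.40 to 1.42 at 3 to 9 h, within 1 set. The array SD was under 1.5 on 17 arrays, 7 of DXC and 10 of DX. The DXC ones were experiment 1 at 27 to 33 h and experiment 2 at 24 to 33 h, and the DX ones were experiments 1 and 3 at 3 to 9 h and experiment 1 at 24 to 33 h. Each of these sets was also low in the ribosomal protein genes, so array SDs are given beside the results below. Of markers for the labelled tissue, 4 of 5 KNOX genes of shoot meristem and stem had median levels of 4.54 to 5.30 and OSH43 had 3.22. The median levels of OSH6 (4.54) and OSH43 were below every array median. Hourly means of the 5 KNOX genes ran from 4.41 to 4.68 in DXC and from 4.59 to 4.79 in DX, and those of 5 leaf photosynthesis genes from 5.72 to 6.38 in DXC and from 5.65 to 6.07 in DX. Hourly means of 14 seed storage and amylase genes were 3.03 to 3.17 in DXC and 3.07 to 3.26 in DX, below every array median. Without detection calls no gene can be called absent.

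The line means of the 10 genes were farthest apart from 3 to 9 h. In DXC every gene had its highest hourly mean at 3, 6 or 9 h, was lower at 15 h than at any hour from 0 to 9 h, and was lowest at 24, 27 or 33 h. At 12 h RPS7 (9.12) was still within the range of its 0 to 9 h means and RPL30 (8.91) just below its own, while the other 8 were lower than at any earlier hour. In DX the means were lowest at 3 or 6 h or again at 33 h, and highest at 12 or 15 h. The mean of the 10 genes ran between hourly means of 7.86 and 8.50 in DXC and of 7.77 and 8.30 in DX. Levels of different genes come from different probes and are not compared here.

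**Figure D1:**
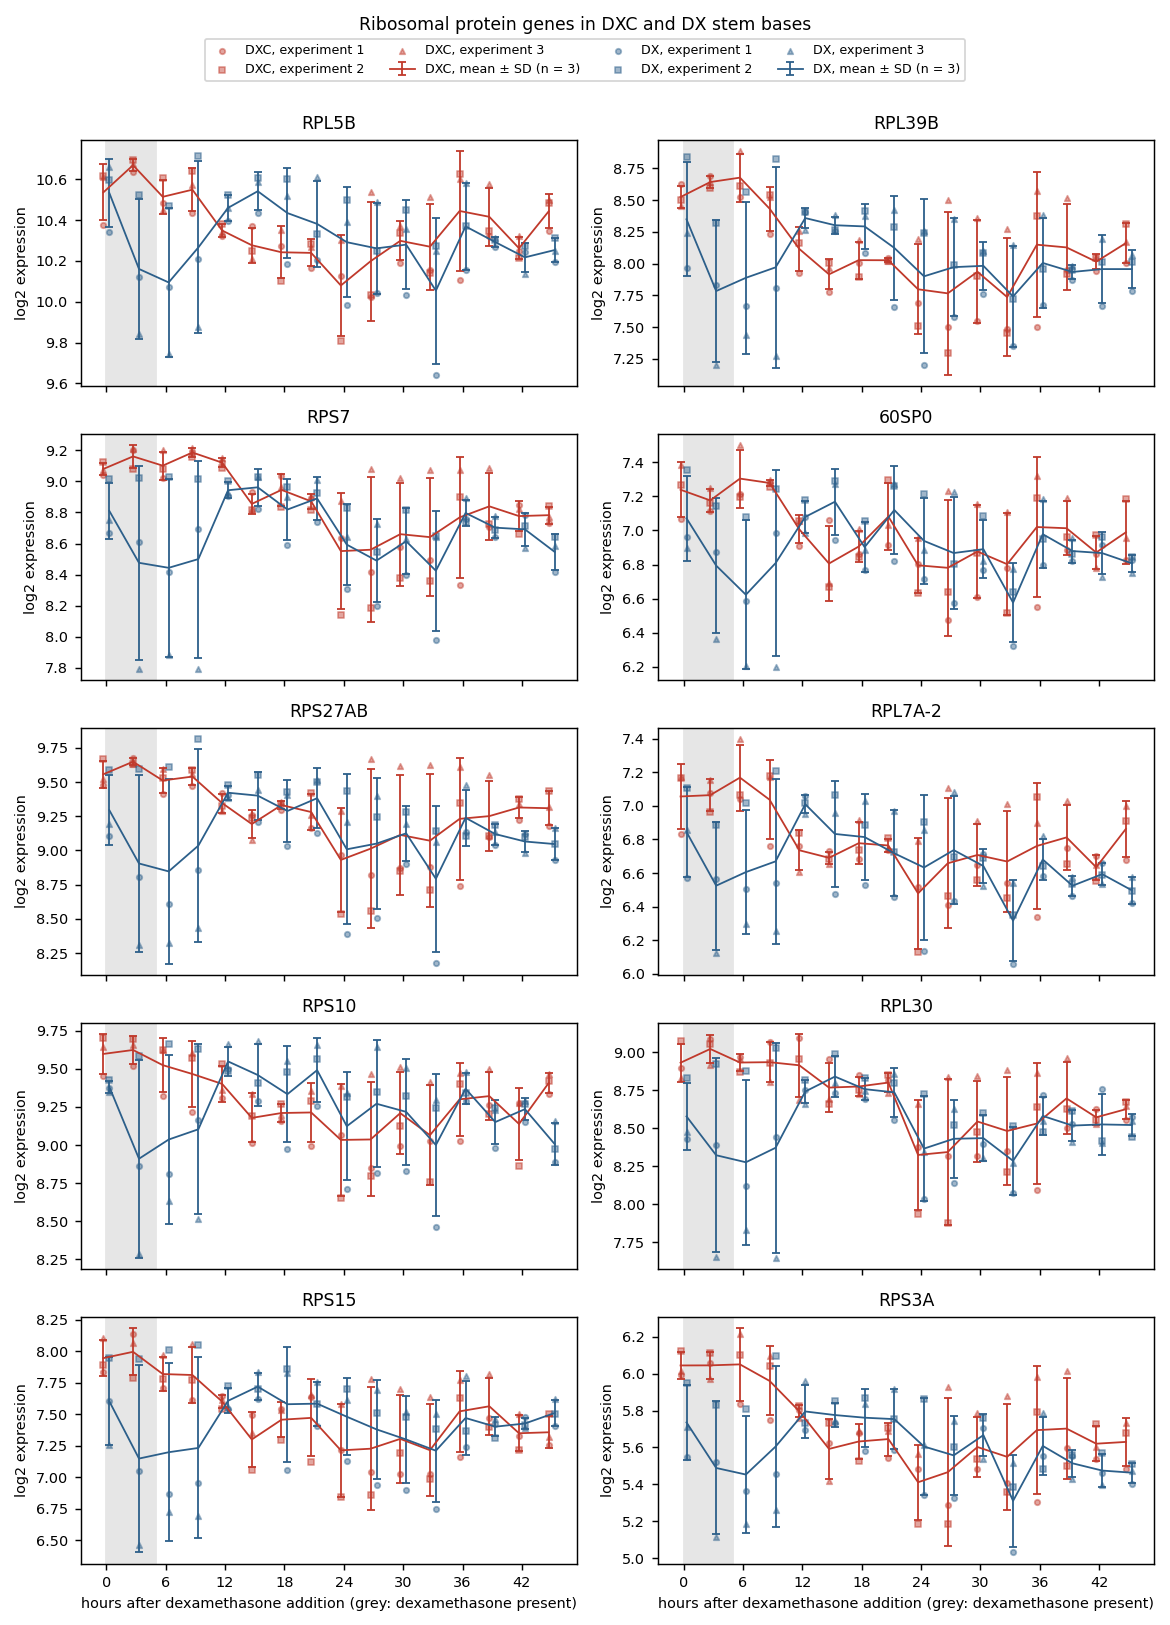
Log2 expression of each of the 10 ribosomal protein genes (one panel a gene) against hours after dexamethasone addition, in DXC (red) and DX (blue). Points are the 3 experiments, lines join the means and bars are the SD over 3 experiments. DXC lines start high and are lower at 15 h, RPS7 and RPL30 later than the other 8. The DX experiments lie far apart from 3 to 9 h, where experiment 3 (triangles) is lowest.

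In the large subunit, RPL5B, which holds the 5S ribosomal RNA, had hourly means that ran from 10.67 at 3 h to 10.08 at 24 h in DXC, and from 10.54 at 15 h to 10.05 at 33 h in DX. RPL39B, a very small protein that lines the exit tunnel of the new peptide, had the largest span in DXC, 0.94, with 8.68 at 6 h and 7.74 at 33 h. In DX it spanned 0.62. RPL7A-2 ran from 7.17 at 6 h to 6.48 at 24 h in DXC, and from 7.01 at 12 h to 6.32 at 33 h in DX. RPL30, whose yeast (Saccharomyces cerevisiae) counterpart binds its own transcript, ran from 9.02 at 3 h to 8.32 at 24 h in DXC, and from 8.84 at 15 h to 8.28 at 6 h in DX. 60SP0, the base of the stalk that recruits translation factors, had the narrowest span in DXC, 0.52, against 0.59 in DX.

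In the small subunit, RPS7 was the steadiest gene between experiments in DXC, with a median SD of 0.095 over 3 experiments, against 0.19 in DX. On the 12 DXC arrays of 0 to 9 h it lay between 9.02 and 9.21 with a median of 9.14. RPS10 spanned 0.59 in DXC and 0.64 in DX. RPS15, in the head of the small subunit, spanned 0.78 in DXC and 0.57 in DX. RPS3A, also called CYC07, whose Catharanthus roseus counterpart was described as active during DNA synthesis in dividing cells, had 6.05 at 6 h and 5.41 at 24 h in DXC. RPS27AB is made as a fusion to ubiquitin, the tag for protein breakdown, and is cut from it; it ran from 9.65 at 3 h to 8.93 at 24 h in DXC.

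Before induction, at 0 h, all 10 genes had higher means in DXC than in DX, by 0.00 to 0.35 with a median of 0.24, and none passed the test (limma, Benjamini-Hochberg adjusted p 0.419 to 0.995). Of all features 0.0273% were called at 0 h. After each array was scaled to the same SD, 6 of the 10 were above 0, and after quantile normalization 5 of the 10. The direction of some of the 10 at 0 h thus changed with the scaling. Of the 11 other ribosomal protein genes, 10 were above 0 as deposited (median 0.35). After scaling 10 of the 11 were above 0 (median 0.20), and after quantile normalization 9 (median 0.15).

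From 3 to 9 h the genes were high in all 3 DXC experiments and scattered in DX. At 3 h RPS15 had 8.14, 7.78 and 8.06 in DXC experiments 1 to 3, against 7.05, 7.94 and 6.46 in DX. The lines overlapped there, through DX experiment 2. At 6 h 60SP0 had 7.21, 7.20 and 7.50 in DXC and 6.58, 7.08 and 6.21 in DX, with no overlap. RPS3A at 6 h had 5.83, 6.10 and 6.22 in DXC and 5.37, 5.81 and 5.19 in DX, where the lowest DXC value was just above the highest DX value. At 9 h RPS7 had 9.19, 9.16 and 9.21 in DXC and 8.70, 9.01 and 7.79 in DX. In these examples DXC experiments lay close together, and DX experiment 2 was near them while DX experiment 3 was farthest.

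At 3 h the DXC minus DX difference of the 10 genes was 0.38 to 0.86 (median 0.69), at 6 h 0.42 to 0.79 (median 0.64) and at 9 h 0.28 to 0.69 (median 0.47). All 10 were above 0 at each of these hours. With the arrays scaled to the same SD, 9 of the 10 were above 0 at each hour, and the medians were 0.34, 0.34 and 0.26. None of the 150 combinations of gene and hour from 3 to 45 h passed the test over all features and hours, of which 0.648% were called. The lowest adjusted p was 0.0925, for RPS3A at 6 h with a difference of 0.60 ± 0.17 (SE). The unadjusted p was under 0.05 in 24 combinations, all at 3 to 9 h and all higher in DXC. With the experiment as a block, 1.33% of all combinations were called, among them 60SP0 at 6 h (0.68, adjusted p 0.0457) and RPS3A at 6 h (0.60, adjusted p 0.0401). At 6 h itself 7.72% of all features were called under this block. With the sets of 4 hours as a random block, which allows for arrays of a set moving together, 6 combinations of the 10 genes were called, where 1.33% of all combinations were. They were RPS7, RPS10 and RPS15 at 3 h, 60SP0 and RPS3A at 6 h and RPS7 at 9 h (adjusted p 0.0329 to 0.0465), and 3.08%, 8.16% and 4.95% of all features were called at those hours.

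The early window, the mean line difference from 3 to 9 h minus that at 0 h, asks whether the lines diverged after dexamethasone. All 10 genes were above 0, by 0.19 to 0.53 with a median of 0.34, against a median of -0.00091 over all features, and all 10 stayed above 0 after scaling (median 0.26) and after quantile normalization (median 0.19). None was called (limma, adjusted p 0.753 to 0.877), where 0.308% of all features were called higher. RPL5B had the lowest unadjusted p, 0.0407, with 0.40 ± 0.19 (SE; 95% interval 0.017 to 0.78). RPL39B had the largest difference, 0.53 ± 0.34 (SE). Taken without subtracting 0 h, the early difference was 0.40 to 0.70 and all 10 genes were called higher (adjusted p 4.82e-05 to 0.00114), as were 32.9% of all features.

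The experiments did not share the early difference. Its median over the 10 genes was 0.27 in experiment 1, -0.026 in experiment 2 and 0.81 in experiment 3, with 9, 3 and 10 genes above 0. The difference between the lines in the change of the array SD from 0 h was 0.020, -0.021 and 0.14 in the same experiments. In experiment 3 the mean of the 10 genes in DX was 8.14 at 0 h and between 7.31 and 7.43 at 3 to 9 h. The array SD there was 1.54 at 0 h and 1.41 on average at 3 to 9 h, against 1.65 and 1.66 in DXC. Without experiment 3 the median early difference was 0.094. Without the 17 arrays of an SD under 1.5, an alternative chosen after seeing the data, it was -0.18, and RPL5B alone remained above 0. DX at 3 to 9 h then rested on experiment 2 alone, set against a 0 h mean of 3 experiments.

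**Figure D2:**
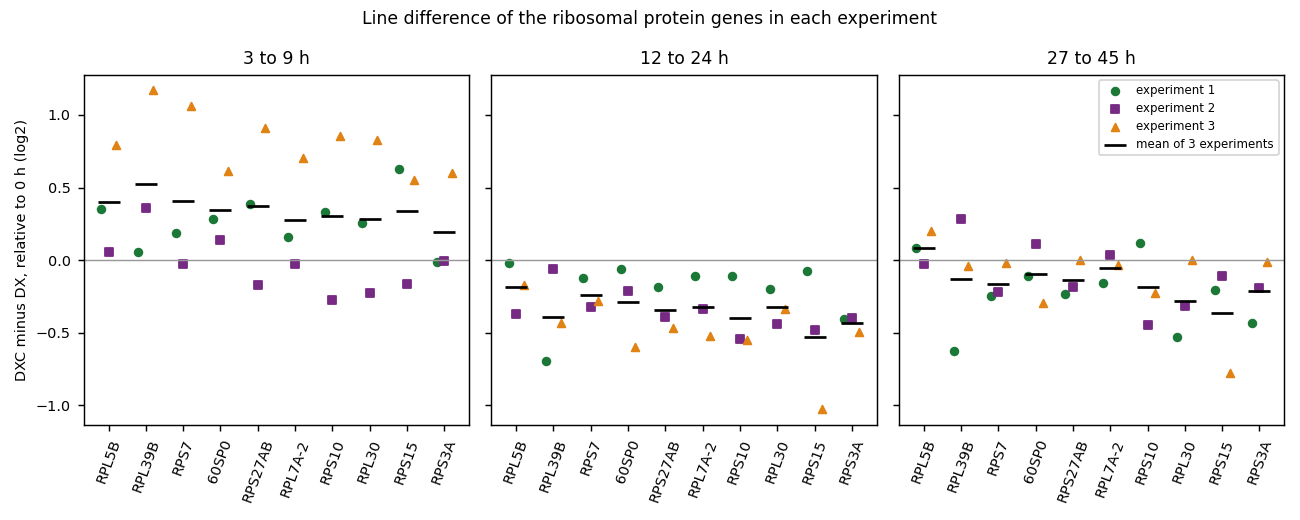
DXC minus DX relative to 0 h (log2, vertical axis) for each of the 10 genes (horizontal axis), over 3 to 9 h, 12 to 24 h and 27 to 45 h. Coloured points are the 3 experiments and black bars their mean. At 3 to 9 h experiment 3 gives most of the high values, and experiment 2 sits near or below 0 except for RPL39B (0.36) and 60SP0 (0.14); at 12 to 24 h every point is below 0 as deposited, while 2 of the 10 means are above 0 after scaling the arrays.

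In the middle window, 12 to 24 h, the line difference relative to 0 h was below 0 for all 10 genes as deposited, by -0.53 to -0.19 with a median of -0.34, against -0.017 over all features. It was below 0 for every gene in each of the 3 experiments, with medians of -0.12, -0.38 and -0.48. RPS15 had the largest, -0.53 ± 0.30 (SE), and RPS3A the lowest unadjusted p, 0.0275, with -0.43 ± 0.19 (SE). None was called (adjusted p 0.369 to 0.679), and 0.216% of all features were called lower. After scaling, 8 of the 10 were below 0 with a median of -0.12; RPL5B was at 0.18 and RPS7 at 0.022. After quantile normalization 8 of the 10 were below 0 with a median of -0.059, and RPS7 and RPL30 were above it. The array SD fell in DXC relative to DX by 0.088, 0.10 and 0.11 in experiments 1 to 3.

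In the late window, 27 to 45 h, 9 of the 10 genes were below 0 as deposited (median -0.15, range -0.36 to 0.084), but 7 of the 10 were above 0 after scaling and 7 of the 10 after quantile normalization. None was called (adjusted p 0.599 to 0.931), and 0.183% of all features were called lower. At single hours, all 10 genes were higher in DXC at 39 h, by 0.12 to 0.29, also after both scalings. At that hour 58.4% of all features were above 0 as deposited and 50.8% scaled, and so were all 11 other ribosomal protein genes. None of the 10 genes passed the test at 39 h.

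The F test over the 15 later hours asks whether the courses of the lines differ in shape, and it called none of the 10 genes (adjusted p 0.424 to 0.845) and 0.969% of all features. The unadjusted p was 0.0255 for RPS3A and 0.0484 for RPL5B. Within DXC the time effect was called for RPS3A (F 2.77, adjusted p 0.0444), where 5.37% of all features were called. RPL39B (unadjusted p 0.0203) and RPL30 (unadjusted p 0.0438) were not called. The RPS3A call was lost with arrays scaled (adjusted p 0.0892), after quantile normalization (adjusted p 0.109) and without experiment 1 (adjusted p 0.804) or experiment 2 (adjusted p 1). It was also lost with the sets of 4 hours as a random block (adjusted p 0.299). With the experiment as a block it was kept (adjusted p 0.00984), RPL39B was called too, and 11.3% of all features were called. Within DX no gene was called (adjusted p 0.683 to 0.965) and none had an unadjusted p under 0.05, where 0.371% of all features were called.

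The step that all 3 DXC experiments shared lay between the sets of 0 to 9 h and 12 to 21 h. It was noticed in the courses and is described with no test, and its 2 sets of hours differ in the time of day. As deposited, all 10 genes averaged lower at 12 to 21 h than at 0 to 9 h in each DXC experiment, with median changes of -0.23, -0.33 and -0.37. In DX the same change was 0.19, -0.11 and 0.84 in experiments 1 to 3, above 0 for all 10 genes in experiments 1 and 3 and below 0 for all 10 in experiment 2. The mean array SD changed by -0.037, -0.073 and -0.054 in DXC, against 0.071, -0.016 and 0.18 in DX.

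RPL39B had the largest such step. It fell by 0.58, 0.54 and 0.52 in DXC experiments 1 to 3; its 12 DXC arrays of 12 to 21 h lay between 7.78 and 8.26 (median 8.01), against 8.23 to 8.89 (median 8.57) at 0 to 9 h. With scaled arrays its mean step was -0.39, and after quantile normalization -0.37. RPS3A had 5.42 to 5.82 (median 5.69) at 12 to 21 h, against 5.75 to 6.22 (median 6.05) at 0 to 9 h. Its mean step was -0.36 as deposited, -0.28 scaled and -0.26 after quantile normalization, below 0 in 3 of 3 experiments in each case. RPS15 had a mean step of -0.44 as deposited and -0.30 scaled, and RPL7A-2 of -0.34 and -0.23. 60SP0, RPS10 and RPS27AB were likewise below 0 in 3 of 3 experiments under each scaling, by -0.30, -0.30 and -0.28 as deposited and by -0.19, -0.11 and -0.086 scaled.

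RPS7 and RPL30 stood apart in this step. As deposited their mean steps were -0.18 and -0.14, the smallest of the 10, and scaled they were -0.0098 and 0.027. After quantile normalization both were above 0 in 3 of 3 experiments, at 0.0052 and 0.042. In DXC they had instead the largest mean changes at the next step, 24 to 33 h minus 12 to 21 h: -0.35 and -0.39 as deposited, and -0.22 and -0.27 scaled. That later step in DXC was below 0 in experiments 1 and 2 for all 10 genes as deposited and above 0 in experiment 3 for all 10. RPL5B had the smallest later step in DXC as deposited, -0.065, and it was 0.13 with scaled arrays. The control line DX had a later step of like size. As deposited it was below 0 for all 10 genes in each DX experiment, with medians of -0.50, -0.24 and -0.21. Its means in DX were -0.37 for RPS7 and -0.39 for RPL30, so a later fall of these 2 genes was not particular to DXC.

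**Figure D3:**
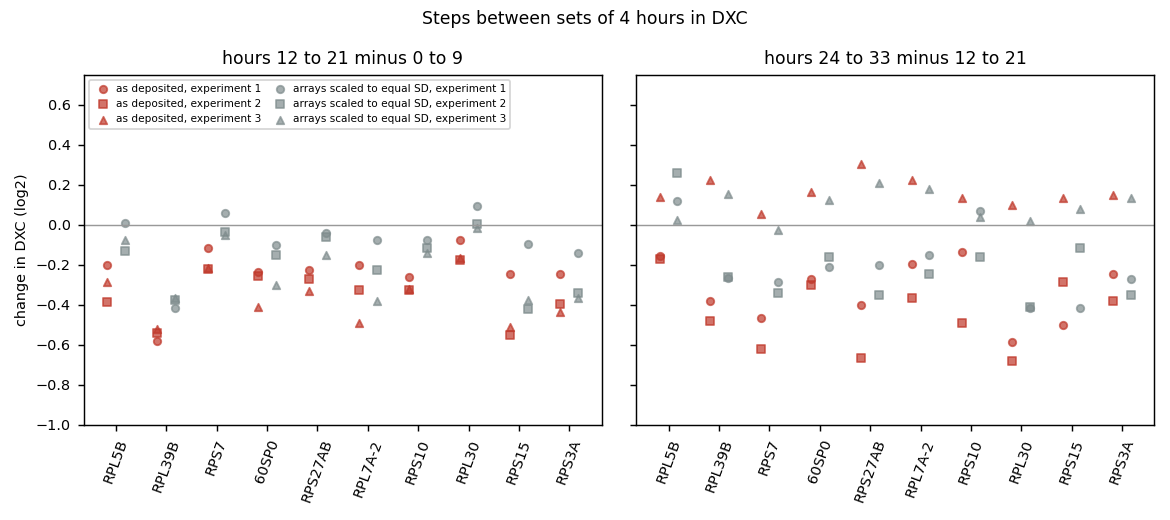
Change of each of the 10 genes in DXC (log2, vertical axis) between neighbouring sets of 4 hours: 12 to 21 h minus 0 to 9 h (left) and 24 to 33 h minus 12 to 21 h (right). Red points are values as deposited, grey points after scaling every array to the same SD, and marker shapes are the 3 experiments. On the left all red points are below 0 while the grey points of RPS7, RPL30 and RPL5B are near 0; on the right experiment 3 (triangles) is above 0 in red.

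Comparing hours 24 to 45 with hours 0 to 21 sets each hour against the one 24 h before it, so that the time of day is the same. In DXC all 10 genes averaged lower on the second day as deposited, by -0.37 to -0.12 with a median of -0.27, against -0.032 over all features. Of the 10, 9 were called lower, where 28.8% of all features were called lower. RPL30 had 7.88 to 8.96 (median 8.55) on the 24 DXC arrays of the second day, against 8.66 to 9.09 (median 8.88) on those of the first, a difference of -0.37 ± 0.080 (SE; adjusted p 0.000346). RPS7 had 8.14 to 9.09 (median 8.73) on the second day, against 8.81 to 9.21 (median 9.08) on the first, a difference of -0.34 ± 0.080 (SE; adjusted p 0.000645). In both the second day reached well below the lowest first-day array while its highest arrays overlapped the first day.

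The other called differences were -0.33 for RPL39B (adjusted p 0.00641) and for RPS15 (adjusted p 0.00447), -0.27 for RPS27AB (adjusted p 0.0171), -0.26 for RPS3A (adjusted p 0.000758), and -0.21 for RPL7A-2 (adjusted p 0.0121), RPS10 (adjusted p 0.0284) and 60SP0 (adjusted p 0.0134). RPL5B was not called (-0.12 ± 0.059 SE, adjusted p 0.0767). With the experiment as a block all 10 were called, where 31.4% of all features were called lower.

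The SEs and p-values above take all arrays as independent and do not measure the spread between experiments. For RPL30 experiments 1 to 3 gave -0.57, -0.52 and -0.015. The calls rested on experiments 1 and 2. Their median second-minus-first-day differences over the 10 genes were -0.38 and -0.42 with all 10 genes lower, whereas experiment 3 had -0.041 with 8 lower. The array SD was 1.52 and 1.51 on the second day of experiments 1 and 2, against 1.61 and 1.62 on the first, and 1.63 on both days of experiment 3. Without experiment 1 no gene was called in DXC, where 2.76% of all features were called lower, and without experiment 2 3 were, where 8.95% were. With the 17 arrays of an SD under 1.5 left out, only RPL30 was called (-0.20, adjusted p 0.0414), where 2.19% of all features were called lower.

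With scaled arrays 6 of the 10 were called lower in DXC, where 30.7% of all features were, and RPL5B was called higher (0.11, adjusted p 0.00776), where 19.5% of all features were. Scaling moves a value in proportion to its distance from the array median. It therefore moves RPL5B most, whose median over all arrays was the highest of the 10 (10.34). After quantile normalization 3 were called, RPL30, RPS7 and RPS3A, where 22.8% of all features were called lower, and RPL5B and RPS10 were above 0. With the sets of 4 hours as a random block 4 were called, RPL30, RPS7, RPS15 and RPS3A, where 8.5% of all features were called lower. RPL30, RPS7 and RPS3A were thus called under each of these scalings and blocks.

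In DX all 10 genes also averaged lower on the second day, by -0.20 to -0.062 with a median of -0.12, as deposited and after both scalings. None was called (adjusted p 0.231 to 0.814), where 0.42% of all features were called lower. By experiment the medians were -0.17, -0.32 and 0.16, and in experiment 3 only RPS3A was lower. Array SDs in DX were 1.52, 1.57 and 1.56 on the second day of experiments 1 to 3, against 1.53, 1.61 and 1.53 on the first. Leaving out arrays of an SD under 1.5 takes the DX means at 3 to 9 h from experiment 2 alone. Without the 17 arrays of an SD under 1.5 all 10 genes were called lower in DX, by -0.35 for RPL39B to -0.18 for RPL5B (adjusted p 0.00187 to 0.0371), where 9.24% of all features were.

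The second-minus-first-day difference in DXC minus that in DX was -0.27 to -0.014 and called for none of the 10 genes (adjusted p 0.124 to 0.921), where 6.14% of all features were called lower. RPL30 had -0.25 ± 0.11 (SE; 95% interval -0.48 to -0.022; adjusted p 0.124) and RPS15 -0.27 ± 0.14 (SE; adjusted p 0.166). After scaling 4 of the 10 were above 0 and RPL5B was called higher (0.20, adjusted p 0.00684), where 2.93% of all features were; after quantile normalization 6 were above 0. Without the 17 arrays of an SD under 1.5 all 10 were above 0, by 0.0997 to 0.260, and none was called (adjusted p 0.167 to 0.699). A decline from the first to the second day larger in DXC than in DX was therefore not shown for these genes.

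**Figure D4:**
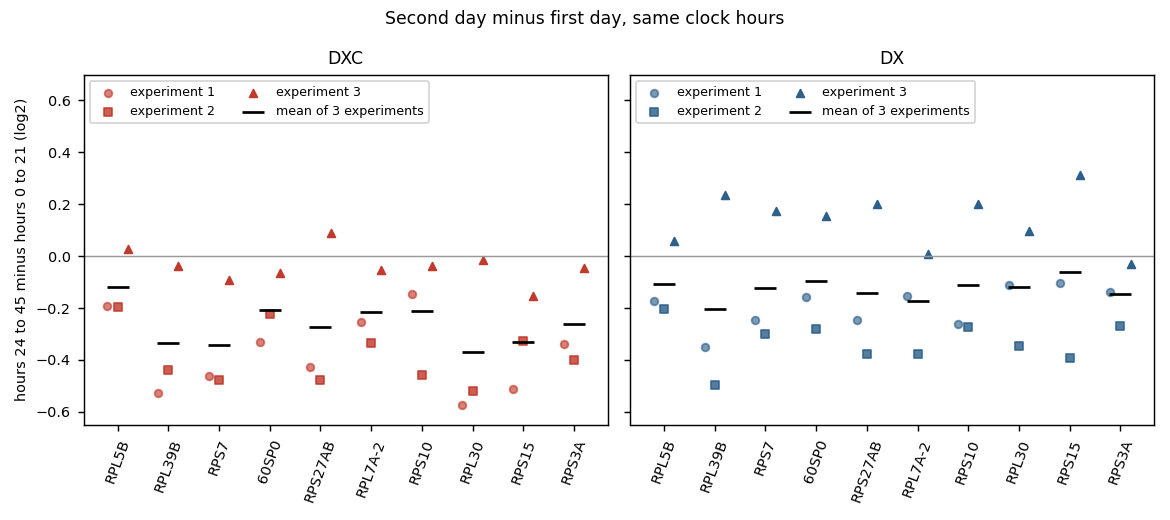
Mean of hours 24 to 45 minus mean of hours 0 to 21 (log2, vertical axis) for each of the 10 genes in DXC (left) and DX (right). Points are the 3 experiments and black bars their mean. In both lines experiments 1 and 2 lie below 0 and experiment 3 (triangles) near or above 0; after scaling of the arrays the DXC mean of RPL5B is above 0.

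Across the 24 sets of 4 hours, the mean level of the 10 genes moved with the mean array SD (Pearson r 0.955, Spearman rho 0.923; permutation p 2e-05 each, the smallest that the permutations can give, adjusted p 2e-05 and 6e-05 over 3 relations). Without the 2 sets farthest from the median SD, r was 0.934. Within DXC r was 0.977 over 12 sets (rho 0.951) and within DX 0.931 (rho 0.825, permutation p 1.6e-03). Sets of 1 experiment share plants and handling, so the 24 are not fully independent, and the permutations exchanged them freely. All 10 genes lay above the array median on every array, and the medians hardly moved. The level of such genes and the array SD are therefore not independent measures, and the permutations do not allow for this. Other high features were not compared, so the relation and its p-values cannot be called particular to these genes. With the arrays scaled to the same SD r was still 0.864, and after quantile normalization 0.798. The part of the array spread in the differences above was not tested further.

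**Figure D5:**
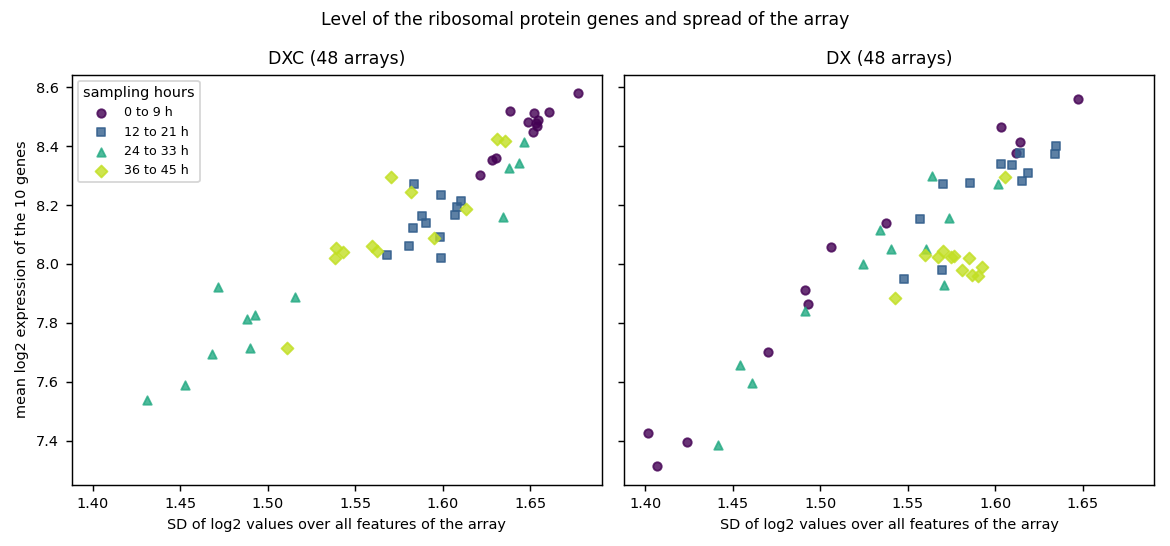
Mean log2 expression of the 10 genes (vertical axis) against the SD of the log2 values over all features of the same array (horizontal axis), for 48 DXC arrays (left) and 48 DX arrays (right). Colours and markers give the sampling hours. The DXC arrays of 0 to 9 h lie together at the top right, with SDs of 1.62 to 1.68, while DX arrays of the same hours run from 1.40 to 1.65.

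Over the 32 group means the 45 pairs of the 10 genes correlated with r between 0.779 (RPL30 with RPL5B) and 0.967 (RPL30 with RPS7), with a median of 0.878. The points share arrays and their spread. With scaled arrays the range widened to -0.159 to 0.906 with a median of 0.681 and the same pairs at the ends. RPL5B, the gene that scaling moves most, had a median r of 0.875 with the other genes as deposited. Scaled it had 0.149, against 0.625 to 0.844 for each of the other 9. Relative to the mean of the 10 genes, RPL5B was higher on the second day than on the first in 3 of 3 DXC experiments, by 0.067 to 0.19, and in 2 of 3 DX experiments. RPS7 was relatively lower in 3 of 3 DXC experiments, by -0.090 to -0.052, and in 1 of 3 DX experiments.

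The genes with a course most like the mean of the 10 over the 32 group means were LOC4330533 (r 0.973), LOC4340392 (r 0.972), LOC4336975 (r 0.969), LOC4340509 (r 0.967) and LOC4336307 (r 0.965), among 24151 features with 1 gene symbol. LOC4330533 was also first with scaled arrays (r 0.939). In all 363 features had an r over 0.9 as deposited and 35 scaled. The other 11 ribosomal protein genes had a median r of 0.913 (0.591 to 0.962) as deposited, and 1 of them was among the first 50. With scaled arrays their median r was 0.830 (0.130 to 0.887), and 0 of them were among the first 50. Features that carry only a LOC symbol were not assigned to a family.

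As deposited, most of the 11 other ribosomal protein genes lay on the same side of 0 as the 10. In the early window all 11 were above 0 as deposited and after both scalings, with a median of 0.22, and none was called; RPS27AA, the companion of RPS27AB, had 0.32 (unadjusted p 0.0387) and RPL39C, a copy of RPL39B, 0.39 (unadjusted p 0.266). In the middle window 10 of 11 were below 0 with a median of -0.48, 10 after scaling and 9 after quantile normalization, and none was called. RPL3, which reaches toward the site of peptide bond formation, had -0.56 (unadjusted p 0.0229) and RPL11 -0.64 (unadjusted p 0.0262). In the late window 10 of 11 were below 0 as deposited (median -0.29), and none was called. The lists parted there once arrays were rescaled. After scaling 1 of 11 was above 0 (median -0.086), against 7 of the 10 genes (median 0.064). After quantile normalization 4 of 11 were above 0, against 7 of the 10. From the first to the second day in DXC all 11 were called lower as deposited (median -0.28), where 28.8% of all features were called lower, and 10 were below 0 after scaling and after quantile normalization. The lowest p values were those of RPL7A-1 (-0.32, adjusted p 0.00129), RPL39C (-0.42, adjusted p 0.00133), RPS4 (-0.23, adjusted p 0.00232) and RPL9 (-0.31, adjusted p 0.00259). In DX 1 was called lower, RPS27AA (-0.17, adjusted p 0.0491), where 0.42% of all features were. RPL7A-1 and RPL7A-2, RPS10-1 and RPS10, RPS27AA and RPS27AB, and RPL39C and RPL39B are related copies, and whether their probes tell them apart was not tested.

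Of other genes that serve translation, 5 of 6 translation factors were called lower on the second day in DXC, among them eIF4E, the cap-binding protein (-0.35, adjusted p 0.00026), and eIF4G, its scaffold (-0.25, adjusted p 0.00409). Of 5 ribosome assembly genes 3 were called lower, among them PES (-0.28, adjusted p 0.00256) and BOP1 (-0.20, adjusted p 0.0103), whose proteins act in 1 complex in the making of the large subunit. All 3 chloroplast ribosomal protein genes and 7 of 14 histone H2B and MCM genes of dividing cells were called lower there too. In DX none of these lists had a called gene, and the same shares of all features, 28.8% in DXC and 0.42% in DX, apply. Scaling put 2 of the 6 translation factors and 1 of the 5 assembly genes above 0, and 3 of the 14 genes of dividing cells.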

How the data were processed

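The deposited table holds log2 expression values of 36643 features on 96 arrays, normalized by the authors. GCRMA is named per the submitters' processing notes, without version or settings; per the labels' protocols RNA was labelled with the Affymetrix WT PLUS protocol. Detection calls were not analysed here, and precision is limited by how many arrays there are. Every value column belonged to a sample (0 left over). Arrays of a group correlated with a median r of 0.971 and a lowest r of 0.890, and no pair of arrays exceeded 0.989.

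By the platform annotation 24161 features had 1 gene symbol, 90 had several and 12392 had none. Names follow it and the RefSeq gene table of assembly ASM3414082v1; no sequences were used.

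The 32 groups of line and hour were fitted together with limma 3.58.1 (R 4.3.3), using lmFit and trended eBayes on 64 residual degrees of freedom. P-values were Benjamini-Hochberg adjusted over all features, and over features and hours for single hours, and called under 0.05. Correlations used scipy 1.17.1. Scripts were tested on simulated data.

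The genes and lists, and the rule for naming others (every one of the 10; at most 4 called genes of a list by lowest p, or 2 uncalled; the 5 most correlated), were chosen with earlier results of these data known. Of the translation factor and assembly lists the 2 with the lowest p were named.

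Replicate numbers mark independent experiments, per the series design text, so they pair the lines. For same-numbered DXC and DX arrays of an hour (48 pairs), deviations from the group means had a correlation of 0.053 on average (lowest -0.641; 16 over 0.1), against -0.029 in 96 pairs of other numbers. The SDs cover the spread of these 3 experiments at an hour. The main fit took all arrays as independent, although arrays of a set correlated (0.439, estimated for the set block). Its SEs and p-values over several hours therefore do not measure the spread between experiments. Alternatives tried were quantile normalization, scaling arrays to 1 SD, experiment and set blocks, a filter at a mean of 5, no intensity trend, no 0 h subtraction and leaving out experiments or arrays with an SD under 1.5.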

Additional observations from a re-analysis of the deposited data

How the results depend on the processing

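Of 507 recomputed values for single genes and their medians 406 kept their direction and their side of the threshold, as did 97 of 117 counts of called genes. The early differences stayed above 0 for all 10 genes under both scalings. Blocks, the filter and the intensity trend cannot move a difference in this balanced design, only its p. The 507 include values under these settings, whose direction was fixed in advance. In the other results the cause of a change was not tested, beyond fewer arrays where some were left out.

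The number of genes called lower or higher from the first to the second day in DXC, 9 as reported, was 3 after quantile normalization, 4 with sets as a random block, 1 without arrays of an SD under 1.5, and 0 to 10 when 1 experiment was left out (0 without experiment 1, 3 without experiment 2). In DX it was 10 instead of 0 without arrays of an SD under 1.5. For the difference between the lines it was 1 instead of 0 with scaled arrays (RPL5B, higher), and 0 to 1 when 1 experiment was left out (RPL30, lower, without experiment 3, where 24% of all features were called in either direction). Without arrays of an SD under 1.5 it was 0, but all 10 differences turned from below to above 0, at 0.0997 to 0.260. The time effect in DXC, called for 1 gene, was called for 0 with scaled arrays, after quantile normalization and with sets as a random block, for 2 with the replicate block, for 5 without arrays of an SD under 1.5 (7.42% of all features), and for 0 to 4 when 1 experiment was left out (4 without experiment 3, with 20.1% of all features). Single hours, 0 called, gave 2 with the replicate block, 6 with sets as a random block (1.33% of all combinations under each) and 0 to 3 when 1 experiment was left out (3 without experiment 2, from RPL30 and RPS15, with 0.777% of all combinations). Without subtraction of 0 h the early window gave 10 called instead of 0. The replicate block, which pairs lines by experiment, changed no other count by over 1.5 times.

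Without arrays of an SD under 1.5, DX at 3 to 9 h rested on experiment 2 alone and DXC at 27 to 33 h on experiment 3 alone. Directions reversed as follows. Early window, without arrays of an SD under 1.5: RPL39B -0.16, RPS7 -0.14, 60SP0 -0.069, RPS27AB -0.37, RPL7A-2 -0.16, RPS10 -0.30, RPL30 -0.33, RPS15 -0.46 and RPS3A -0.20. Early window with 1 experiment left out: RPS3A ran from -0.0086 to 0.30. Middle window: RPS7 was 0.075 and RPL30 0.0090 after quantile normalization, RPL5B 0.18 and RPS7 0.022 with scaled arrays, and RPS7 0.027 and RPL30 0.028 without subtraction of 0 h. Late window after quantile normalization: RPL39B 0.14, RPS7 0.097, 60SP0 0.13, RPS27AB 0.098, RPL7A-2 0.15 and RPS10 0.037. Late window with scaled arrays: RPL39B 0.065, RPS7 0.074, 60SP0 0.029, RPS27AB 0.12, RPL7A-2 0.063 and RPS10 0.087. Late window without subtraction of 0 h: RPL39B 0.049, RPS7 0.11, 60SP0 0.070, RPS27AB 0.12, RPL7A-2 0.16, RPS10 0.032, RPL30 0.071 and RPS3A 0.096. Late window without arrays of an SD under 1.5: RPL39B 0.044, 60SP0 0.0023, RPS27AB 0.0066 and RPL7A-2 0.055. Late window with 1 experiment left out: RPL39B ran from -0.33 to 0.12, RPL7A-2 from -0.096 to 0.0020 and 60SP0 from -0.20 to 0.00089. Second minus first day in DXC: RPL5B was 0.061 after quantile normalization and 0.11 with scaled arrays, and RPS10 was 0.023 after quantile normalization.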
